A study of Mus musculus with 5 samples.

Results

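The genes described here are 49 regulators of cell division: cyclins, cyclin-dependent kinases (CDKs), their inhibitors, and the retinoblastoma (Rb), E2F, MuvB and Myc genes. They were chosen by symbol, and all 49 were found among the 55357 genes of the deposited table. Of these, 48 were among the 15665 genes with enough reads to test; Cdkn2a was not. RNA was measured in 2 Control and 3 PRC1 i2KO libraries of hair follicle stem cells, sorted from back skin of mice at postnatal day 75. Control mice were Ring1a-/-, Ring1bflox/flox, and PRC1 i2KO mice carried K15-CrePR1 with the same Ring1a-/-, Ring1bflox/flox alleles. Ring1A and Ring1B are the catalytic subunits of Polycomb repressive complex 1 (PRC1), which ubiquitinates histone H2A at lysine 119, and the constitutive loss of Ring1a is therefore shared by both groups. Skin of both groups was treated with 1% RU-486, the ligand that activates the CrePR1 fusion, once a day for 10 days beginning at postnatal day 50, and was taken 15 days after the treatment. Recombination is limited to cells in which the keratin 15 promoter was active, and the labels do not say whether each library came from a separate animal. The p-values therefore rest on the spread among the 5 libraries, part of which may be technical.

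Progress from G1 into S phase is driven by D-type cyclins with Cdk4 or Cdk6 and then by E-type cyclins with Cdk2, which phosphorylate the pocket proteins Rb1, Rbl1 and Rbl2 and release E2F factors from them. In resting cells Rbl1 or Rbl2 joins E2f4 or E2f5, a DP partner and the MuvB core in the DREAM complex, which keeps genes of S phase and mitosis low; in cycling cells MuvB works with B-Myb (Mybl2) to activate genes of G2 and mitosis. Bulge stem cells rest for most of the hair cycle, and INK4 and Cip/Kip inhibitors restrain the CDKs.

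Levels are given as counts per 1e6 reads (CPM) on the scaled library total, in the order Control 1, Control 3, then PRC1 i2KO 1, 2 and 3. A gene is said to have risen or fallen where edgeR's quasi-likelihood test gave a Benjamini-Hochberg adjusted p under 0.05 over all 15665 genes tested. Library totals ran from 8270420 estimated reads in Control 1 to 32463200 in Control 3. Rnf2, the gene of Ring1B, measured 67.9 and 57.7 CPM in the controls, against 48.1, 46.6 and 50.2 CPM in PRC1 i2KO, a log2 change of -0.37 (adjusted p = 0.036). Without Control 1 the call did not hold (adjusted p = 0.251), nor without PRC1 i2KO 1 (0.0993) or PRC1 i2KO 2 (0.118). Ring1, the gene of Ring1A, still had reads in both groups, between 19.6 and 30.3 CPM, and gene-level reads do not show whether an exon is missing. Cells were sorted on CD34, and Cd34 measured 1548 and 1697 CPM in the controls but 11.0, 12.3 and 37.2 CPM in PRC1 i2KO. Of 4 genes listed for the sort, Cd34 alone fell. Epcam rose, from 145 and 132 CPM to 393, 403 and 354 CPM, and Itga6 and Ly6a were not called. Of 12 genes listed as bulge stem cell markers, 9 fell, beside 15.1% of all tested genes, and Sox9, Tcf3 and Tcf4 were not called. By symbol, Tcf3 and Tcf4 are E-protein genes and not bulge markers. Fewer fell with either control left out. The summed level of the 12 went from 22182 and 21139 CPM to 5023, 5202 and 7041 CPM. Summed markers of the upper follicle (7 of 8 rose; 489 and 459 against 6568, 6526 and 5648 CPM), sebaceous gland (8 of 8; 252 and 242 against 3317, 3091 and 2625) and suprabasal epidermis (9 of 9; 1075 and 1086 against 2099, 2617 and 2978) were higher. Beside these counts, 18.8% of all tested genes rose. Without PRC1 i2KO 3, 7 of the 9 suprabasal markers rose. Defb6, Ivl, Elovl3, Pparg and Awat2 were among markers with control means under 5 CPM. Genes so low enter the test mainly through the PRC1 i2KO libraries, so nothing is read from the counts of rises. Of 7 tested hair germ and matrix markers, 3 rose and 1 fell. Their sum was 282 and 317 against 318, 345 and 437 CPM. The signal and transcription factor genes Shh, Wnt10b and Lef1 rose, Lef1 from 9.35 and 6.5 CPM to 40.9, 49.1 and 67.6 CPM. In the controls Shh had 1 and 0 reads, and Wnt10b 8 and 0. Hoxc13 fell (log2 -0.51), and Dlx3 (-1.50) and Msx2 (-0.63) had negative changes that were not called. Summed fibroblast markers (3 of 4 tested fell, 1 rose) ran from 73.8 and 71.8 CPM to 33.0, 32.9 and 32.7 CPM, and melanocyte markers (1 of 3 rose) from 6.52 and 4.6 CPM to 24.8, 26.4 and 22.2 CPM. Endothelial markers summed to at most 3.90 CPM in any library, Lyz2 was at 0 in all 5 and Ptprc was at most 1.16 CPM, while summed leukocyte markers ran from 26.3 and 21.6 CPM to 87.2, 102 and 67.5 CPM, mostly Cd74. The part of these cell types in the results was not tested, and in bulk samples fewer cells of a type and less RNA per cell cannot be told apart.

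Promoter sequence was looked at for the S, G2 and mitosis genes and the E2F genes, where most members rose. Letters were read from RefSeq on GRCm38.p6, which held 46 promoters for 36 of the 49 genes; the deposited counts were made on mm39, so these coordinates belong to the reference alone. The 8 genes in order of role are shown, chosen as the called genes of both groups with a searched motif and the smallest adjusted p, and each window runs from 200 bases before the annotated start to 30 bases from it. Capitals mark the E2F motif (searched as TTCCCGC, with the variants TTGGCGC, then TTCGCGC and also TTGCCGC) and the cell cycle homology region, CHR (TTTGAA, with the variant TTCGAA), read on both strands; CCAAT boxes stay in lower case.
Ccnb1, chr13:100786457-100786686 (minus strand): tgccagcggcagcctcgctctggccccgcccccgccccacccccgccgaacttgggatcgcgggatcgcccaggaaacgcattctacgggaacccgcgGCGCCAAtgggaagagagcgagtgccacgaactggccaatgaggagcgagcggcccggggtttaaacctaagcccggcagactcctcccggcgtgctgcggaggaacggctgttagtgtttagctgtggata
Ccnb2, chr9:70421525-70421754 (minus strand): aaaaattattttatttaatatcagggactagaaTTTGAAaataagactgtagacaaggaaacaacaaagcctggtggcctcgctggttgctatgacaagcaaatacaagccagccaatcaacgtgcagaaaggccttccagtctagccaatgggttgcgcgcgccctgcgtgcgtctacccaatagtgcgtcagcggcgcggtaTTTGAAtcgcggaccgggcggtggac
Ccnf, chr17:24251380-24251609 (minus strand): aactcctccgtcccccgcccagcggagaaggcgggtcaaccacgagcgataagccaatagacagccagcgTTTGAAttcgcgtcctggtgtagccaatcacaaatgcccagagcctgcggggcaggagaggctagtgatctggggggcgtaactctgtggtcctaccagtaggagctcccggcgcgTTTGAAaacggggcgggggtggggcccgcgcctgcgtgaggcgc
Cdk1, chr10:69352883-69353112 (minus strand): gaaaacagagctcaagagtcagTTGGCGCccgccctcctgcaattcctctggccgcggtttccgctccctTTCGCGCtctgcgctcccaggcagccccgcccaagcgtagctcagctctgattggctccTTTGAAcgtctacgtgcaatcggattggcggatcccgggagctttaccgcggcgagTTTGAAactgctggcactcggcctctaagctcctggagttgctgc
Cks2, chr13:51645032-51645261 (plus strand): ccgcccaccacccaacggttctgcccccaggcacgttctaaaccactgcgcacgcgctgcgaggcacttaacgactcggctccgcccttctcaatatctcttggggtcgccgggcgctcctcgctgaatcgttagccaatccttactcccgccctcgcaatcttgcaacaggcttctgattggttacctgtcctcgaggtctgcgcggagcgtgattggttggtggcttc
E2f2, chr4:136180582-136180811 (plus strand): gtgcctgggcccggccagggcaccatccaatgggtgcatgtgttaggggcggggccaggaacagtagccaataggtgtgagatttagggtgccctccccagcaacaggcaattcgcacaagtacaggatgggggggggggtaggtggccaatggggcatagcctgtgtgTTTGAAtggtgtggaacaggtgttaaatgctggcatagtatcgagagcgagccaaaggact
E2f8, chr7:48881567-48881796 (minus strand): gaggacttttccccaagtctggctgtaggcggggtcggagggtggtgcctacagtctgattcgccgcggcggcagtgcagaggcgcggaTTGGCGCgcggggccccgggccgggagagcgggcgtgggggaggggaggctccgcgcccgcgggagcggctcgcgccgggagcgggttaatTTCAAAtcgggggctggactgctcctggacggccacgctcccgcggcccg
Cdc25b, chr2:131186748-131186977 (plus strand): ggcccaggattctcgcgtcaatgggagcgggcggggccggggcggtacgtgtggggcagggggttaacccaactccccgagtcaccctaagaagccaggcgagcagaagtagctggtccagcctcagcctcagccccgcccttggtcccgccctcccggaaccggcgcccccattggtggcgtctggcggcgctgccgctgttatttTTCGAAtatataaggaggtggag

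Cdk1 held both kinds of match: E2F motifs 178 and 130 bases before its start, and CHR motifs 71 and 15 bases before it. Ccnb1 had 1 E2F match, 102 bases before the start, which shares letters with a CCAAT box at 99. Ccnb2 carried CHR letters 167 bases before and 4 bases after its start, with CCAAT boxes 87, 54 and 21 bases before it. In Ccnf the CHR matches lay 130 and 14 bases before the start. E2f8 combined an E2F match at 111 bases, sharing letters with an inverted CCAAT box at 112, with a CHR match at 20 bases before its start. Of 2 E2f2 promoters, the one shown had its CHR match 31 bases before the start, and Cks2 had CCAAT boxes on either strand and neither E2F nor CHR letters. Cdc25b, the one gene of these that fell, had a TTCGAA match 7 bases after its start.

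Over the full windows of 250 bases before to 50 bases after the start, 15 of the 46 promoters (32.6%) held an E2F motif, against 15.9% of 14120 promoters of tested genes and 9.57% of all 32851. A CHR match was found in 32.6% of the 46 promoters, 14.1% of those of tested genes and 19.2% of all. For CCAAT the shares were 50%, 37.5% and 37.4%, and for the Myc E-box CACGTG 15.2%, 9.7% and 7.15%. Median GC content was 64% in the 46 promoters, 60.7% in those of tested genes and 52.7% in all, and these shares were not adjusted for it. Among the 28 promoters of genes that rose, 39.3% held an E2F motif and 32.1% a CHR match; among the other 18 promoters the shares were 22.2% and 33.3%. Each of the 6 promoters of S, G2 and mitosis genes had a CCAAT box, and 4 had CHR letters. A match is a description of the letters in the window and not a site of binding.

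Of the 48 genes tested, 31 rose in PRC1 i2KO (64.6%), against 18.8% of all tested genes, and 3 fell (6.25%), against 15.1%. The 3 that fell were Cdc25b, Rbl2 and Cdkn1b. The median log2 change was 0.83 over the 48 genes and -0.01 over all tested genes. At least 2-fold rises were called for 23 of the 48 and for 10.8% of all. Of the 31 rises, 18 were of genes with a control mean under 5 CPM. Genes so low enter the test mainly through the knockout libraries, so these shares are a description only. All 3 PRC1 i2KO libraries were above both controls for 34 genes, against 30% of all tested genes, and below both for 7, against 29.4%. The groups overlapped for Cdk2, Cdkn1a, Rb1, E2f5, Lin37, Lin54 and Myc. Leaving out 1 library at a time gave between 20 and 31 rises, with the low count without Control 3. On the log2(TPM + 1) scale 23 rose and 7 fell, and that scale moves the median change of all genes from -0.01 to -0.13. No called gene changed direction under any alternative analysis.

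**Figure D1:**
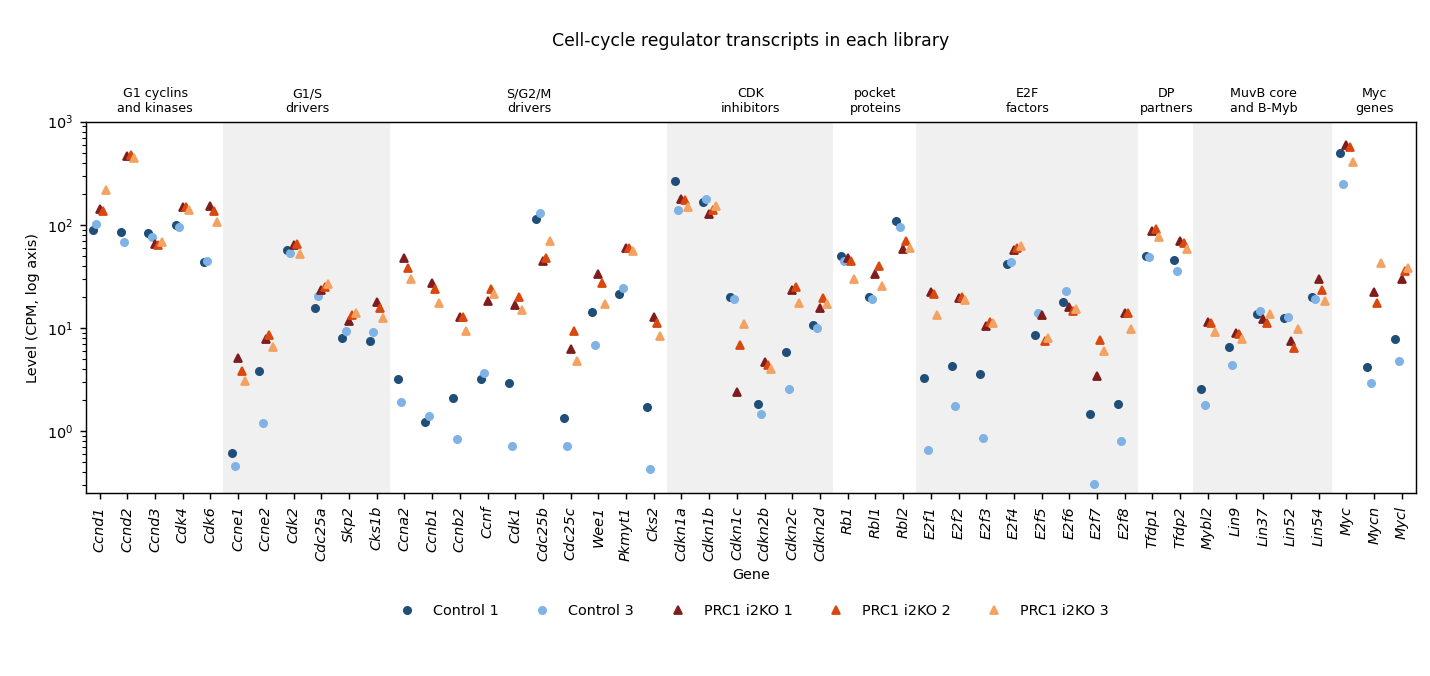
Level of each tested regulator in each library, in CPM on a log axis, with circles for the 2 Control libraries and triangles for the 3 PRC1 i2KO libraries, grouped by role. Cdkn2a had 0 reads in the controls and is not drawn; genes near 1 CPM in the controls, such as Ccnb1 and Ccne1, stand well below all 3 triangles, whereas Cdk2 and Rb1 overlap.

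The genes differed in how far the controls could be measured. Of 19 genes with a control mean under 5 CPM, 18 rose, against 22.2% of the 4819 tested genes with so low a mean, and the remaining one was Cdkn2a, which could not be tested. Genes this low enter the test mainly through the knockout libraries, so nothing is read from that count. Of 15 genes with a control mean of at least 40 CPM, 7 rose, 3 fell and 5 did not pass the test; of the 5053 tested genes at such levels, 17.3% rose and 27.2% fell. Few reads stood behind the low values, since 19 of the 49 genes had under 50 reads in Control 1. The 2 controls were not alike in these genes: Control 1 was above Control 3 in 24 of the 31 that rose (77.4%), against 52.2% of all rising genes. PRC1 i2KO 3 was the lowest of its group in 23 of the 31 (74.2%, against 56.4% of all rising genes). Mki67, a marker of cycling cells, had the same order, with 16.9 and 7.96 CPM in the controls, against 234, 250 and 160 CPM in PRC1 i2KO.

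Among the G1 genes, Ccnd1, Ccnd2, Cdk4 and Cdk6 rose and Ccnd3 was not called. Ccnd2 (cyclin D2) measured 85.7 and 68.4 CPM in the controls, against 462, 479 and 445 CPM in PRC1 i2KO. The 3 knockout libraries lay close together and far above both controls. Its mean went from 77.0 ± 12.2 CPM (SD, n = 2) to 462 ± 16.8 CPM (n = 3), a 6.02-fold rise (log2 2.59, SE 0.13, adjusted p = 1.14e-06). Cdk6, a catalytic partner of D cyclins, measured 43.9 and 44.6 CPM against 154, 136 and 107 CPM. This 2.99-fold rise (log2 1.58, SE 0.15, adjusted p = 6.69e-05) was the larger among the D cyclin kinases. Cdk4 rose 1.5-fold, from 99.4 and 95.0 CPM to 149, 149 and 138 CPM (log2 0.58, SE 0.10, adjusted p = 0.00163). Ccnd1 (cyclin D1), with 88.5 and 101 CPM against 144, 137 and 217 CPM, rose 1.75-fold (adjusted p = 0.0249). PRC1 i2KO 3 stood above the other knockout libraries there, and the call was lost without Control 1 (adjusted p = 0.135) or Control 3 (0.0828). Ccnd3 (cyclin D3) was lower in every knockout library, 82.8 and 76.1 CPM against 66.0, 63.8 and 68.5 CPM, with a log2 change of -0.26 that missed the threshold (adjusted p = 0.0779); its exons overlap Bysl on the opposite strand, which rose (log2 0.79).

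Levels of different genes can be set side by side only per length, as TPM, transcripts scaled to gene length and a fixed total. On that scale Ccnd3 was the most abundant D cyclin in the controls, with 55.9% and 58.5% of the summed TPM of the 3 genes, against 22.1%, 22.8% and 24.4% in PRC1 i2KO. Ccnd2 held 17.4% and 14.1% in the controls, against 52.8%, 55.1% and 46.9% in PRC1 i2KO, so the order of the 2 genes was exchanged. The share of Ccnd1 overlapped between groups, at 26.7% and 27.4% against 25.1%, 22.2% and 28.6%. Summed D cyclin TPM was 161 and 188 in the controls, against 243, 269 and 348 in PRC1 i2KO. Cdk6 went from 4.37% and 5.39% of the Cdk4 and Cdk6 total to 19.6%, 12.7% and 13.9%. Cdk4 was the larger part in all 5 libraries. Cdk6 itself measured 6.64 and 8.57 TPM in the controls, against 44.8, 31.5 and 31.0 TPM in PRC1 i2KO. That is a larger rise than the 2.99-fold rise fitted on counts, so the size of its shift in share depends on the unit. With 2 libraries against 3, groups that do not overlap give an exact two-sided permutation p of 0.2, the smallest this design allows.

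**Figure D2:**
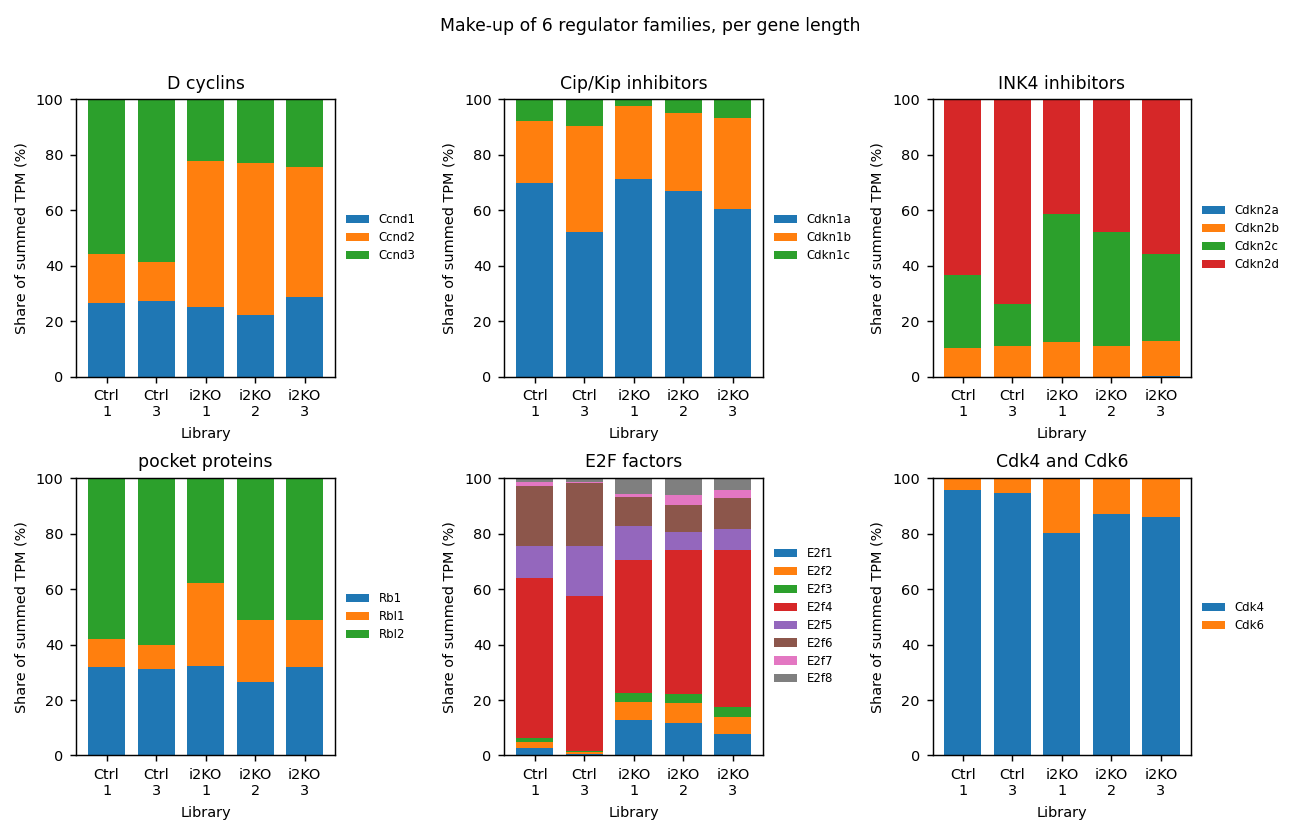
Share of summed TPM, in percent, held by each gene of 6 regulator families in each of the 5 libraries (Ctrl, Control; i2KO, PRC1 i2KO). Ccnd2 took 14.1% to 17.4% of the D cyclin bars in the controls, against 46.9% to 55.1% in PRC1 i2KO, and Cdkn2c 15.3% to 26.6% and 31.4% to 46.3% of the INK4 bars.

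Of the 6 genes of the G1/S step, 3 rose (Ccne1, Ccne2 and Cks1b), beside 18.8% of all tested genes. Cdk2, Cdc25a and Skp2 were not called. Ccne1 and Ccne2 had control means under 5 CPM, so nothing is read from the count of rises. Without PRC1 i2KO 1 or PRC1 i2KO 2 the call of Ccne1 alone was kept. Ccne1 (cyclin E1) had 0.615 and 0.467 CPM in the controls, from 5 and 15 reads, and 5.08, 3.86 and 3.11 CPM in PRC1 i2KO. No knockout library came near the controls, and the fitted rise was 7.58-fold (log2 2.92, SE 0.55, adjusted p = 0.00293). Ccne2 (cyclin E2) measured 3.82 and 1.21 CPM against 7.77, 8.56 and 6.58 CPM. The controls differed from each other by more than the knockout libraries did, and the 3.32-fold rise (adjusted p = 0.0206) lost its call without Control 3 (log2 1.00, 0.128), PRC1 i2KO 1 (0.0578) or PRC1 i2KO 2 (0.0786). Cks1b, a small subunit that helps the ligase receptor Skp2 recognise Cdkn1b, rose 1.81-fold, from 7.51 and 9.14 CPM to 17.8, 15.6 and 12.4 CPM (adjusted p = 0.0235). Its call was lost without either control (adjusted p = 0.12 and 0.0619), PRC1 i2KO 1 (0.0752) or PRC1 i2KO 2 (0.0715). Cdk2, the kinase of cyclins E and A, overlapped between groups at 57.2 and 53.3 CPM against 63.4, 65.7 and 52.7 CPM (log2 0.13, adjusted p = 0.463), and its sign turned on the TPM scale (-0.028). Cdc25a, a phosphatase that activates CDKs, had 15.8 and 20.3 CPM against 23.5, 24.8 and 26.8 CPM (log2 0.46, adjusted p = 0.068). Skp2 had 8.00 and 9.33 CPM against 11.7, 13.4 and 13.9 CPM (log2 0.58, adjusted p = 0.0819). Both were higher in every knockout library without passing the test.

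Of the 10 genes of S phase, G2 and mitosis, 9 rose and 1 fell, beside 18.8% and 15.1% of all tested genes. The median log2 change was 3.01. Ccna2, Ccnb1, Ccnb2, Ccnf, Cdk1, Cdc25c and Cks2 had control means under 5 CPM, so nothing is read from the count of rises. Ccnb1 (cyclin B1, the mitotic partner of Cdk1) measured 1.23 and 1.40 CPM in the controls, from 10 and 45 reads, and 27.5, 24.2 and 17.6 CPM in PRC1 i2KO. The controls agreed and every knockout library lay far above them, a 17.0-fold rise (log2 4.09, SE 0.31, adjusted p = 1.14e-05). Ccna2 (cyclin A2, used in S and G2) had 3.20 and 1.93 CPM against 47.8, 38.6 and 30.0 CPM, a 16.4-fold rise (log2 4.04, SE 0.30, adjusted p = 1.47e-05). Cdk1, the kinase that starts mitosis, had 2.95 and 0.715 CPM against 16.9, 20.1 and 15.0 CPM. In proportion, the controls stood further apart than the knockout libraries did, and the rise was 11.5-fold (log2 3.52, SE 0.55, adjusted p = 0.00214). Cks2, a small Cdk1-binding subunit, had 14 reads in each control (1.72 and 0.435 CPM) and 13, 11.2 and 8.37 CPM in PRC1 i2KO, a 12.4-fold rise (adjusted p = 0.00102). Ccnb2 (cyclin B2) rose 8.95-fold, from 2.09 and 0.84 CPM to 12.7, 12.8 and 9.32 CPM (adjusted p = 0.000456). Ccnf, an F-box cyclin of a ubiquitin ligase, rose 6.08-fold, from 3.20 and 3.67 CPM to 18.1, 24.1 and 21.2 CPM (adjusted p = 4.52e-05). The size of 3 rises moved with the control kept: without Control 1 and without Control 3, the log2 change was 4.58 and 2.55 for Cdk1, 4.61 and 2.64 for Cks2, and 3.78 and 2.47 for Ccnb2. All 6 genes had 3 knockout libraries well above both controls and kept their calls under every alternative run.

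The kinases and phosphatases that set the phosphorylation of Cdk1 went in both directions. Cdc25c, a phosphatase that activates Cdk1, had 1.35 and 0.715 CPM in the controls (11 and 23 reads), against 6.32, 9.45 and 4.84 CPM in PRC1 i2KO, a 7.22-fold rise (log2 2.85, SE 0.49, adjusted p = 0.00171). Cdc25b, a second phosphatase of that family, was the reverse: 115 and 130 CPM against 44.3, 47.3 and 69.1 CPM. Every knockout library lay below both controls, a 2.29-fold fall (log2 -1.19, SE 0.19, adjusted p = 0.00217), and it was the only one of the 3 falls called under every alternative run. Wee1 and Pkmyt1 encode kinases that hold Cdk1 inactive. Pkmyt1 rose 2.53-fold, from 21.3 and 24.3 CPM to 59.8, 59.3 and 55.3 CPM (log2 1.34, SE 0.13, adjusted p = 5.74e-05). It overlaps Paqr4 on the opposite strand, which also rose (log2 1.88, adjusted p = 4.94e-05); the sources used here give no strandedness, so reads of the pair may not be separable. Wee1 rose by a log2 change of 1.34 as well, from 14.4 and 6.90 CPM to 33.5, 27.6 and 17.0 CPM (SE 0.41, adjusted p = 0.0457), with Control 1 close to PRC1 i2KO 3. That call was lost without Control 3 (adjusted p = 0.181), PRC1 i2KO 1 (0.0885) or PRC1 i2KO 2 (0.106).

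Of the 6 tested CDK inhibitors, 3 rose and 1 fell, beside 18.8% and 15.1% of all tested genes. The 3 that rose were the tested INK4 genes, whose products bind Cdk4 and Cdk6. Cdkn2b and Cdkn2c had control means under 5 CPM, so nothing is read from the count of rises. Of the 3 Cip/Kip genes, whose products bind cyclin-CDK complexes, Cdkn1b fell and Cdkn1a and Cdkn1c were not called. Cdkn2c (p18) measured 5.91 and 2.55 CPM in the controls, against 23.6, 24.9 and 17.5 CPM in PRC1 i2KO. Its groups were well separated, with a 5.63-fold rise (log2 2.49, SE 0.37, adjusted p = 0.000919), or log2 3.10 without Control 1 and 1.89 without Control 3. Cdkn2d (p19 of the INK4 family) rose 1.69-fold, from 10.8 and 9.95 CPM to 15.8, 19.7 and 17.1 CPM (adjusted p = 0.0187). Cdkn2b (p15) rose 2.68-fold, from 1.85 and 1.46 CPM (15 and 47 reads) to 4.66, 4.37 and 4.05 CPM (adjusted p = 0.0257). Neither call held throughout: Cdkn2d lost it without Control 1 (0.0576), Control 3 (0.116) or PRC1 i2KO 2 (0.0754), and Cdkn2b without Control 1 (0.0561), Control 3 (0.147), PRC1 i2KO 1 (0.0625) or PRC1 i2KO 2 (0.0752). Cdkn2a, which encodes p16 and Arf and is a well-known target of PRC1 repression in other cells, had 0 reads in both controls and in PRC1 i2KO 1 and 2, and 1 read in PRC1 i2KO 3. A floor of 3 reads over a group corresponds to 0.0745 CPM over the controls and 0.0601 CPM over the knockouts, so Cdkn2a was not detected above that level; the floor covers counting error only.

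Per length, Cdkn2d was the most abundant INK4 transcript in the controls (63.2% and 73.6% of the family's TPM) and held 41.1%, 47.9% and 55.7% in PRC1 i2KO. Cdkn2c held 26.6% and 15.3% in the controls, against 46.3%, 41.2% and 31.4% in PRC1 i2KO, where it was the largest part in PRC1 i2KO 1 alone. Summed INK4 TPM was 26.4 and 19.3 against 47.6, 51.7 and 42.7. Cip/Kip transcripts were far more abundant, summing to 404 and 285 TPM in the controls, against 231, 239 and 236 TPM in PRC1 i2KO. Both sums were separated between the groups, the INK4 sum upward and the Cip/Kip sum downward. Cdkn1a, whose own level overlapped between groups, held from 52.4% to 71.2% of the Cip/Kip sum. In log2(TPM + 1) the median change of all genes was also lower, at -0.13.

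Cdkn1b (p27) was lower in each knockout library, 166 and 180 CPM against 128, 138 and 151 CPM, a 1.24-fold fall (log2 -0.32, SE 0.11, adjusted p = 0.0455). The fall lost its call without any 1 of Control 1 (adjusted p = 0.0908), Control 3 (0.249), PRC1 i2KO 1 (0.171) and PRC1 i2KO 2 (0.137), and with library totals in place of TMM scaling (0.0754). Cdkn1c (p57) had the lowest fitted change of the 48 genes, with 20.2 and 19.3 CPM against 2.38, 6.86 and 11.0 CPM. Its knockout libraries were all below both controls but differed among themselves, and the log2 change of -1.51 (SE 0.52) missed the threshold (adjusted p = 0.0673). It passed under 6 of 15 alternatives, among them DESeq2 (adjusted p = 0.0113) and edgeR without PRC1 i2KO 1 (log2 -1.13, 0.0218) or PRC1 i2KO 3 (log2 -2.01, 0.00595). For Cdkn1a (p21), a main target of p53, the result turned on which control was kept: it had 266 and 138 CPM in the controls against 177, 173 and 150 CPM. The knockout values lay between the controls (log2 -0.27, adjusted p = 0.509); the change was 0.27 without Control 1, and -0.68 without Control 3, where it passed (adjusted p = 0.00855).

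The pocket protein genes went different ways. Rbl2 (p130, the pocket protein of resting cells) had 108 and 95.0 CPM in the controls, against 58.5, 69.2 and 59.4 CPM in PRC1 i2KO. The groups did not overlap, and the fall was 1.62-fold (log2 -0.70, SE 0.12, adjusted p = 0.00142). Rbl1 (p107, which cycling cells use) had 19.8 and 19.2 CPM against 33.7, 39.6 and 25.6 CPM, a 1.69-fold rise (log2 0.76, SE 0.20, adjusted p = 0.0153) that was not called without Control 1 (0.055), Control 3 (0.0938) or PRC1 i2KO 2 (0.0638). Rb1 overlapped between groups, at 50.0 and 44.4 CPM against 48.1, 44.3 and 30.2 CPM (log2 -0.21, adjusted p = 0.448). On the log2(TPM + 1) scale, tested with limma, Rb1 was lower by more (-0.67, adjusted p = 0.0252), so its result depends on the unit. As shares of the 3 genes' TPM, Rbl2 held 58.1% and 60.0% in the controls, against 37.8%, 51.1% and 51.0% in PRC1 i2KO, and Rbl1 10.2% and 8.88% against 30.0%, 22.3% and 17.2%. Rbl2 was nonetheless the most abundant of the 3 in every library.

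Of the 8 E2F genes, 6 rose, beside 18.8% of all tested genes, and E2f5 and E2f6 were not called. The median log2 change of the 8 was 2.68. E2f1, E2f2, E2f3, E2f7 and E2f8 had control means under 5 CPM, so nothing is read from the count of rises. E2f1, an activator of S phase genes, measured 3.32 and 0.653 CPM in the controls (27 and 21 reads), against 22.5, 21.4 and 13.4 CPM in PRC1 i2KO. All knockout libraries were above both controls, while the controls themselves lay far apart; the rise was 12-fold (log2 3.58, SE 0.70, adjusted p = 0.0103). The other activators rose too. E2f2 had 4.31 and 1.74 CPM against 19.8, 20.2 and 18.6 CPM (7.13-fold, adjusted p = 0.000333), and E2f3 3.57 and 0.871 CPM against 10.5, 11.4 and 11.3 CPM (5.74-fold, adjusted p = 0.0073). E2f7 and E2f8 encode repressors that do not need a DP partner. E2f8 rose 10.7-fold, from 1.85 and 0.809 CPM (15 and 26 reads) to 14.0, 14.1 and 9.90 CPM (log2 3.42, SE 0.42, adjusted p = 0.000231). E2f7 went from 1.48 and 0.311 CPM (12 and 10 reads) to 3.42, 7.71 and 6.05 CPM (7.91-fold, adjusted p = 0.00977), and its call was lost without Control 3 (0.0595). These sizes depended on the control kept: without Control 1 and without Control 3, the log2 change was 4.85 and 2.51 for E2f1, 3.48 and 2.18 for E2f2, 3.66 and 1.63 for E2f3, and 4.19 and 1.97 for E2f7. For E2f8 it was 2.77 without Control 3.

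The E2F genes of the repressor complexes had smaller fitted changes. E2f4 rose from 42.2 and 43.8 CPM to 56.6, 59.6 and 62.2 CPM (log2 0.47, SE 0.11, adjusted p = 0.0113), a call that was lost without Control 1 (0.0643) or Control 3 (0.0566). E2f5 had 8.62 and 13.9 CPM against 13.3, 7.43 and 8.00 CPM; the groups overlapped, and its log2 change of -0.27 (adjusted p = 0.566) became 0.13 without Control 3. E2f6, a repressor that sits in a variant PRC1 complex and does not bind pocket proteins, had 18 and 22.8 CPM against 16.0, 14.7 and 15.3 CPM. It was lower in each knockout library (log2 -0.42, adjusted p = 0.109), and on the log2(TPM + 1) scale the change was -0.68 (limma adjusted p = 0.0331). Per length, E2f4 was the most abundant E2F transcript in all 5 libraries, with 57.9% and 55.7% of the family's TPM against 48.0%, 52.0% and 56.8%. E2f1 held 2.76% and 0.52% against 12.9%, 11.8% and 7.77%, and E2f6 21.6% and 23.0% against 10.4%, 9.70% and 11.4%. E2f4 thus overlapped between groups as a share, while E2f1 and E2f6 did not.

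Both DP genes, whose products are the DNA-binding partners of E2f1 to E2f6, rose modestly. Tfdp1 went from 50.5 and 49 CPM to 87.5, 91.9 and 76.5 CPM (1.72-fold, adjusted p = 0.000796). Tfdp2 went from 45.8 and 36.0 CPM to 69.9, 67.1 and 58.0 CPM (1.6-fold, adjusted p = 0.00553), with the call lost without Control 3 (0.0675). Of the MuvB genes and B-Myb, Mybl2 alone rose, 4.99-fold, from 2.58 and 1.80 CPM to 11.4, 11.2 and 9.21 CPM (log2 2.32, SE 0.33, adjusted p = 0.000521). The 4 MuvB core genes were not called. Lin9 had a log2 change of 0.67 (adjusted p = 0.115), Lin54 of 0.28 (0.368) and Lin37 of -0.20 (0.503). Lin52, the subunit through which MuvB binds pocket proteins, had 12.6 and 12.7 CPM against 7.46, 6.44 and 9.90 CPM, lower in every knockout library (log2 -0.67, adjusted p = 0.0782). It passed without PRC1 i2KO 3 (adjusted p = 0.0246) and on the log2(TPM + 1) scale (-1.27, limma adjusted p = 0.0199).

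Myc genes, which promote growth and entry into the cycle, were led in level by Myc itself, the member with the highest mean TPM in both groups (368 and 452). Myc had 499 and 247 CPM in the controls, against 596, 570 and 403 CPM in PRC1 i2KO, so Control 1 lay within the knockout range. The log2 change was 0.49 (adjusted p = 0.361), 1.08 without Control 1, where it passed (0.0121), and 0.07 without Control 3. Mycl and Mycn were low in the controls and rose. Mycl went from 7.88 and 4.82 CPM to 30.2, 36.1 and 38.3 CPM (5.77-fold, log2 2.53, SE 0.24, adjusted p = 5e-05). Mycn went from 4.18 and 2.92 CPM to 22.6, 17.7 and 42.6 CPM (8.13-fold, adjusted p = 0.00285); PRC1 i2KO 3 was the highest there, and the call was lost without Control 3 (0.0516).

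**Figure D3:**
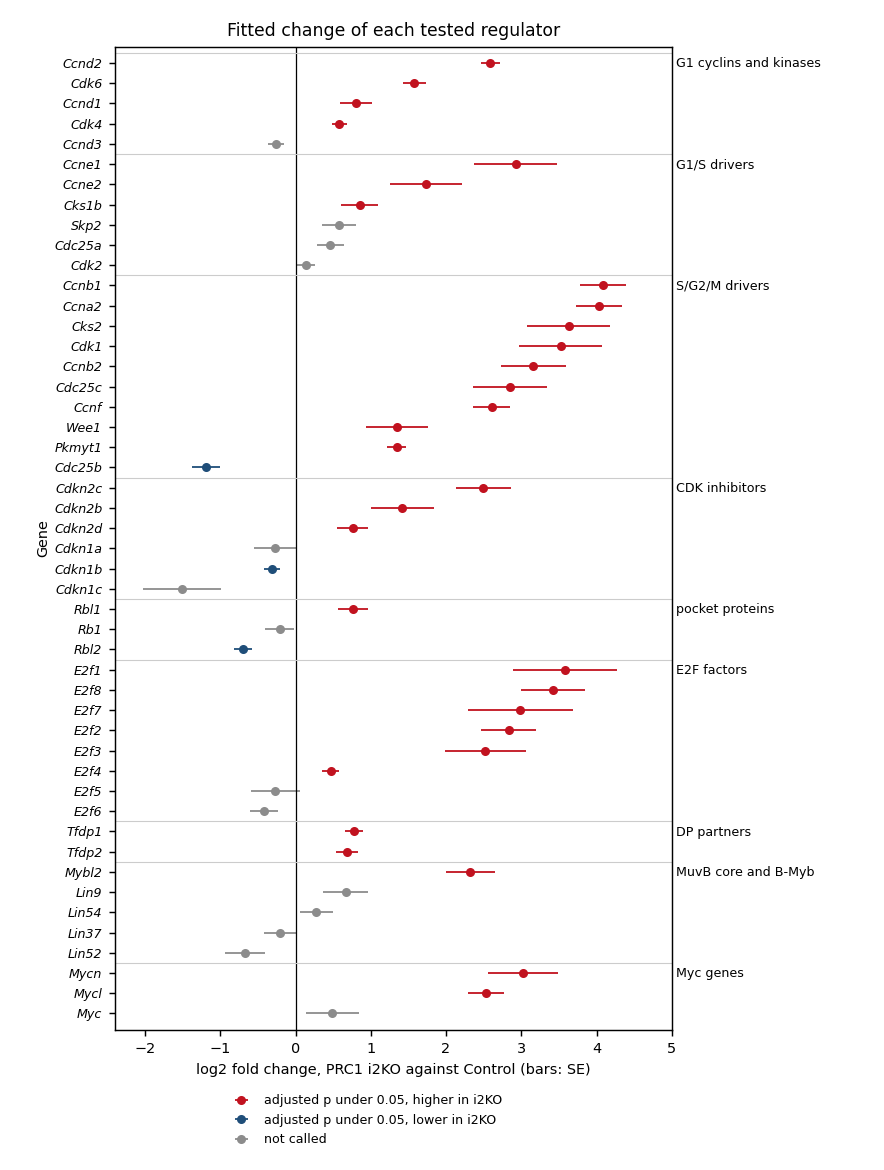
Fitted log2 fold change of the 48 tested regulators, PRC1 i2KO against Control, with bars for 1 SE, grouped by role and ordered by size. Red marks the 31 that rose, blue the 3 that fell (Cdc25b, Cdkn1b and Rbl2) and grey the 14 not called; values run from -1.51 for Cdkn1c to 4.09 for Ccnb1.

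Further genes of the pathway were read from lists of known targets and partners. Of 35 E2F targets of G1/S, 26 rose and 9 were not called (17 rose on the log2(TPM + 1) scale), with a median log2 change of 1.29, and their summed level was 691 and 662 CPM against 1401, 1459 and 1190 CPM. They included Uhrf1 (log2 3.29), a reader of hemimethylated DNA, and the replicative helicase subunits Mcm2 (2.21) and Mcm5 (2.75). Of 30 DREAM and B-Myb-MuvB targets of G2 and mitosis, 29 rose and 1, Pttg1, was not called; the median log2 change was 3.73. Summed, these 30 genes measured 100 and 63.5 CPM in the controls, against 811, 834 and 574 CPM in PRC1 i2KO. Prc1 (log2 2.81) and Kif20a (4.31), both of the central spindle, and Cdc20 (3.45), an activator of the anaphase-promoting complex, were among them. Ndc80, of the kinetochore, had 0 reads in both controls and 7.35 ± 1.89 CPM in PRC1 i2KO (SD, n = 3), at least 98.7-fold higher than a floor of 3 reads over the controls. Both lists lay above the 18.8% of all tested genes that rose, but they were chosen with earlier results of these data known. The DREAM targets were low in the controls, and genes so low enter the test mainly through the knockout libraries. Nothing is therefore read from their count.

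Lists of the wider cell cycle machinery were read beside the same background of 18.8% rising and 15.1% falling genes, and their difference from the 49 regulators was not tested. Of 28 tested cyclins and CDKs outside the 49, which serve transcription and other functions, 3 fell (10.7%) and 25 were not called. Those that fell were Cdk20 (log2 -1.32), Cdk19 (-0.53) and Ccny (-0.29); Ccny was not called without either control or without PRC1 i2KO 1 or 2 (adjusted p from 0.121 to 0.205), and was 0.04 on log2(TPM + 1). Of 27 ubiquitin ligase genes of the cell cycle, 4 rose (14.8%), 1 fell and 22 were not called (2 rose without Control 3), with a median log2 change of -0.10. The conjugating enzyme Ube2c (log2 3.74) and the Cul4 receptor Dtl (4.50) rose, both from control means under 5 CPM. Cdc34 (0.70) rose by less, and Cul1 (-0.67), the scaffold of the Skp2 ligase, fell. Of 12 Myc partners, 2 rose and 4 fell (2 without Control 1 or PRC1 i2KO 1). Mxd4 (log2 -0.91), an antagonist of Myc, and Mlxipl (-1.33) fell. Mxd1 (0.87) rose, as did Mxd3, from 0.246 and 0.435 CPM in the controls to 4.35, 3.86 and 7.53 CPM in PRC1 i2KO. Of 10 partners of E2f6 in the variant PRC1 complex, 1 rose and 2 fell, with a median log2 change of 0.16. Without Control 1, and on log2(TPM + 1), where the median was -0.16, no partner was called, and without PRC1 i2KO 1 neither fall was.

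**Figure D4:**
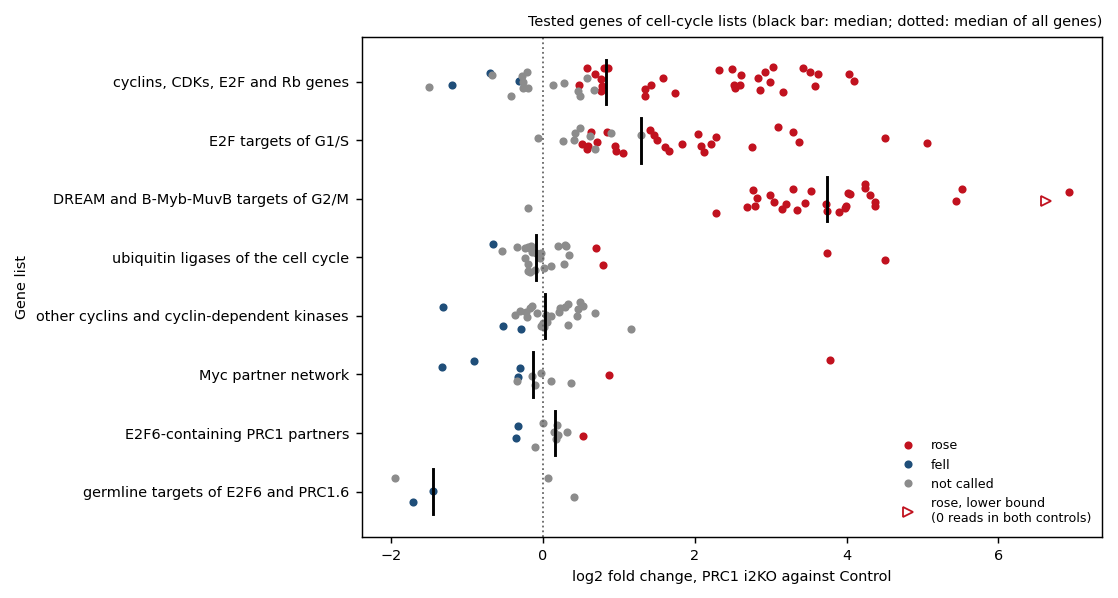
Fitted log2 fold change of each tested gene in 8 lists, PRC1 i2KO against Control, with a black bar at each list's median and a dotted line at the median of all genes (-0.01). The DREAM and B-Myb-MuvB targets centre on 3.73 and the E2F targets on 1.29, whereas the ubiquitin ligases and the other cyclins and CDKs centre on -0.10 and 0.02; the open triangle is Ndc80 at its lower bound.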

How the data were processed

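Per the file headers, the deposited table holds a count column and a TPM column for each library; fractional values show that the authors' counts are expected counts. Their deposited TPM is scaled to gene length and keeps no depth. Tools listed in the submitters' processing notes, without roles, are RSEM 1.3.3, STAR 2.7.9a and DESeq2 1.38.2, with the build mm39; neither strandedness nor annotation was given in those sources. Expected counts share reads between similar genes, and 13 of the 49 genes had fractional reads; 19 overlap an exon of another gene on the opposite strand in GENCODE M21 (names only, since it is on another build).

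After rounding, expected counts went into edgeR 4.0.16, run in R 4.3.3 (filterByExpr, TMM factors from 0.983 to 1.02, robust quasi-likelihood F test, genotype alone in the model). P-values were Benjamini-Hochberg adjusted over 15665 genes, with calls at 0.05. Replicates within groups differed by more than sampling noise (chi-square over degrees of freedom 10.1 to 41.8), so none were merged. Control 3 bears that number in its title but 2 in its description. Shares of TPM were compared with an exact permutation test (scipy 1.17.1). The members and lists were chosen with earlier results of these data known. Every listed regulator was named, with up to 3 called genes of each pathway list by smallest adjusted p, and called genes in the other direction where 3 or fewer; Ndc80 and Pttg1 were added after their values were seen. Alternatives were DESeq2 1.42.0, its size factors, library totals, 2 other count filters, leaving out each library, replicate blocks, and log2(TPM + 1) or log2(TPM + 0.1) in limma 3.58.1. Scripts were tested on simulated data.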

Additional observations from a re-analysis of the deposited data

How the results depend on the processing

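Under each of 15 alternatives, 18 of the 31 rising genes and 1 of the 3 falling genes (Cdc25b) were called, and no called gene changed direction. Over all tested genes, 2939 rose and 2371 fell; 1866 rose on log2(TPM + 1), 1881 on log2(TPM + 0.1) and 1410 on log2(TPM + 1) without a filter. Leaving out 1 library gave from 1963 to 3099 rising and from 1359 to 2757 falling genes; among the regulators, it gave from 20 to 31 rises and from 2 to 5 falls. There were 20 rises of regulators on log2(TPM + 1) without a filter. Falls of regulators numbered 7 on log2(TPM + 1), 6 on log2(TPM + 0.1) and 5 with a replicate block by description number; the cause was not tested.

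The labels name no shared animal, litter or batch behind the replicate numbers, and only 2 numbers are shared, so the numbers were not taken to pair the samples. With a replicate block by title number, 2521 genes rose and 1900 fell, and 29 regulators rose and 2 fell; by description number, 2849 and 2465, and 30 and 5. Deviations of same-numbered libraries correlated at 0.10 and 0.17 across genes by title, and at -0.08 for Control 3 with PRC1 i2KO 2, which share a number by description.

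Signs turned for genes that were not called: Cdk2 was -0.028 on log2(TPM + 1), -0.029 on log2(TPM + 0.1) and -0.028 on log2(TPM + 1) without a filter; E2f5 ran from -0.55 to 0.13 and Cdkn1a from -0.68 to 0.27 as 1 library was left out. The share of Cdkn2b among INK4 genes differed by 1.39 percentage points in TPM and by -0.20 in CPM; of 132 alternative values of family shares, 115 stayed within 1 SD of the libraries. Depth limits the genes with few control reads.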

Other observations

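Germline genes known as targets of E2f6 and the variant PRC1 complex that contains it were read as a further list. Of 19 such genes, 8 had 0 reads in every library and 5 could be tested. Of the 5, 2 fell, beside 15.1% of all tested genes, and 3 were not called. Without PRC1 i2KO 2, 1 of 3 tested genes fell. With so few genes tested, nothing is read from this count. Tdrd1, of the piRNA pathway, fell (log2 -1.71, SE 0.31, edgeR adjusted p = 0.00235), from 8.49 and 9.14 CPM in the controls to 2.80, 2.30 and 3.0 CPM in PRC1 i2KO. Stag3, a meiotic cohesin subunit, fell as well (log2 -1.45, SE 0.37, edgeR adjusted p = 0.0134), but not without Control 1 (log2 -0.89, 0.152), without PRC1 i2KO 2 (0.0514) or on log2(TPM + 1) (limma, 0.0542). The summed level of the list was 36.7 and 26.2 CPM in the controls, against 18.3, 20.6 and 19.6 CPM in PRC1 i2KO. Of the E2f6 partners, Mga (log2 -0.33) and Rybp (-0.36) fell and Hdac2 (0.53) rose, by 1.26-fold, 1.29-fold and 1.44-fold, but none of the 3 was called without Control 1 or on log2(TPM + 1). Mga was also not called without Control 3 (0.108) or PRC1 i2KO 1 (0.109), nor Rybp without PRC1 i2KO 1 (0.0903) or 2 (0.0939).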
